A study of Mus musculus with 3 samples.

Results

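Accessibility at 43 cell cycle genes was read in mesenchymal progenitors (MPs) of the mouse forelimb and their progeny. The embryos were of 3 stages, namely E12.5, E14.5 and lastly E16.5, where E is the embryonic day. The genes were taken from a list by name, with no measured value used as a filter, though earlier results of these data were known. They comprised 12 cyclins and cyclin-dependent kinases (Cdks), 10 replication genes, 8 mitosis genes, 6 Cdk inhibitors, and 7 E2F factors and Cdc25 phosphatases. All 43 had a called open chromatin region (OCR) at a promoter in every library, and so were among the 14267 of 20807 annotated autosomal protein-coding genes of which this was true. The assay was ATAC-seq of single nuclei, in which a transposase cuts open DNA and the cuts are counted per called region, or peak, and per nucleus.

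The cells were tdTomato+ MPs and their progeny from Hic1CreERT2/CreERT2;Rosa26LSLtdTomato/tdTomato embryos of the C57BL/6J strain, at all 3 stages alike. In this line the tamoxifen-activated Cre is driven from Hic1, and the dams received 7.5 mg of tamoxifen at embryonic day 10, so that only cells in which Hic1 was active at about that time, and their progeny, carried the red reporter. There was 1 library per stage, so nothing was replicated and no test of stages could be made. At E12.5 and E14.5 the tissue was the forelimb, and at E16.5 it was the segment around the elbow. At E12.5 pairs of forelimbs were pooled and digested with Dispase, whereas later stages were digested with Collagenase A, Pronase and DNase. The sort removed cells with Ter119, F4/80, CD11b, CD31, CD117 or CD45 on their surface. Values in threes below follow the order of the stages. The first interval is E14.5 against E12.5, the second interval E16.5 against E14.5, and the whole span E16.5 against E12.5. Stage cannot be told apart from library, nor from digestion at E12.5, nor from segment or the software version in the file header at E16.5. In its single-cell RNA data the paper found that most E14.5 and E16.5 cells of this lineage carried markers of more differentiated types. All nuclei of a library were summed here, so stage cannot be told apart from the make-up of cell types either.

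Cells divide by passing through growth, DNA replication and mitosis in order, and cyclins drive each step by activating their Cdk partners. D-type cyclins with Cdk4 and Cdk6 inactivate the retinoblastoma family of proteins, which frees E2F factors to switch on replication genes, and the Cdkn1 and Cdkn2 families of inhibitors hold these kinases back. Genes for mitosis are switched on later, through promoter elements called CCAAT boxes and cell cycle genes homology regions (CHRs), and limb mesenchyme expands by such divisions before its cells differentiate. Promoters of many of these genes are open in cycling and resting cells alike, so accessibility at them is not a measure of how many cells divide.

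Promoter sequences are shown first for 5 members, because promoter letters are what these groups of genes are known to share. Windows of 300 bp, from 250 bp before to 50 bp after a start site, were given by RefSeq (GRCm38.p6) for 37 of the 43 members, 44 windows in all, and 42 of the 44 lay wholly inside the called promoter peak in every library. No window was given for Ccnd1, Ccnd2, Ccne2, Ccna2, Mcm4 and Aurkb. E2f2 and Cdkn2d were the promoters furthest from the others in their change between stages, before called width was taken into account. Cdk1, Top2a and Mcm6 were chosen to show each kind of letters. Each is written 5′ to 3′ on the strand of its gene. Capitals mark every match, on either strand, to the E2F letters TTCCCGC or TTGGCGC, the CHR letters TTTGAA or TTCGAA, and the CCAAT box CCAAT, where an E2F match can overlap a CCAAT box by sharing the letters TTGG.

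E2f2 promoter, chr4:136172024-136172323, plus strand: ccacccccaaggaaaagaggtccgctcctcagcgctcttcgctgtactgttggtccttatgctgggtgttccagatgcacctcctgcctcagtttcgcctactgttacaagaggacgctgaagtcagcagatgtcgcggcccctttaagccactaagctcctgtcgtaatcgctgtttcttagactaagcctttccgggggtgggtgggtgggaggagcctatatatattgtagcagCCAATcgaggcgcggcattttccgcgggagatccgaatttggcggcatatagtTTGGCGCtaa
Cdkn2d promoter, chr9:21291160-21291459, minus strand: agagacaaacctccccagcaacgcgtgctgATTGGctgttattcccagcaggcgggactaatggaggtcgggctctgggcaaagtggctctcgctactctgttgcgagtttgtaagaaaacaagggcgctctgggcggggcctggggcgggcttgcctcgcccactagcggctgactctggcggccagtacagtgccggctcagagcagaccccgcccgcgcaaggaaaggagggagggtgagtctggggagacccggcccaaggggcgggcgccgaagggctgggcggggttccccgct
Cdk1 promoter, chr10:69352863-69353162, minus strand: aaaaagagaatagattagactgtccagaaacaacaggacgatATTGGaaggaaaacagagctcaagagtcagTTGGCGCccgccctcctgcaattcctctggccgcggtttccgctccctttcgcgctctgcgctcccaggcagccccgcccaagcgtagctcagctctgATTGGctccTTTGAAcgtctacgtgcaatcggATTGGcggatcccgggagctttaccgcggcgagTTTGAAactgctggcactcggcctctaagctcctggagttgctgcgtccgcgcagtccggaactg
Top2a promoter, chr11:99024140-99024439, minus strand: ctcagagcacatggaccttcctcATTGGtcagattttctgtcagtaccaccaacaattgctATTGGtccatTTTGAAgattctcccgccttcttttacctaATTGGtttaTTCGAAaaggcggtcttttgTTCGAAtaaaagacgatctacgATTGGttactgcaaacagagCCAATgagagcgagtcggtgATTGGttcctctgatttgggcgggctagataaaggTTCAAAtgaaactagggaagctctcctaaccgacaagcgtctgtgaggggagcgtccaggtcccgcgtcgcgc
Mcm6 promoter, chr1:128359656-128359955, minus strand: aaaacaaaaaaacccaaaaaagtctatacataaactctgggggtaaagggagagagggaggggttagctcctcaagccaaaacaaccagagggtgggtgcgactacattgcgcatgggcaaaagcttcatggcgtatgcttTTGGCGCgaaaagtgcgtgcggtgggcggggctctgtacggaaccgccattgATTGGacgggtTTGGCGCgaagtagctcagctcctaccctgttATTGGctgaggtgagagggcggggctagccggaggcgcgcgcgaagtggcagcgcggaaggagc

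Matches on the other strand read GCGGGAA or GCGCCAA for E2F, TTCAAA for one of the CHR forms and ATTGG for the CCAAT box. The E2f2 window held 1 CCAAT box and 1 E2F match. The Cdkn2d window held a single CCAAT box, written in the reverse direction, and no E2F or CHR match. All 3 kinds of letters were present in the Cdk1 window, with 1 E2F match, 2 CHR matches and 3 CCAAT boxes. Top2a, the topoisomerase that untangles sister chromatids, had 4 CHR matches and 6 CCAAT boxes and no E2F match. Mcm6, a subunit of the replicative helicase, had 2 E2F matches and 2 CCAAT boxes and no CHR match.

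Among the mitosis genes, 6 of 7 with a window held both a CHR and a CCAAT match (Aurka, Bub1, Cdc20, Mki67, Plk1 and Top2a), and the exception was Birc5. The same pair was found in 9.02% of the 16522 protein-coding genes with a window, counting a gene if any of its windows held it. Among the replication genes, 5 of 9 held an E2F match (Cdc6, Mcm3, Mcm5, Mcm6 and Mcm7), against 10.3% of all genes. The E2F factors and Cdc25 phosphatases had an E2F match in 5 of 7 genes, namely Cdc25a, E2f2, E2f3, E2f7 and E2f8. Of the 6 inhibitors, Cdkn2a and Cdkn2c held an E2F match and none held both CHR and CCAAT. Over all members with a window, 28 of 37 held a CCAAT box, against 42.1% of all genes, 16 held an E2F match, and 15 held a CHR match, against 19.4% of all genes. Members with several windows had more chances to hold a match.

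**Figure D1:**
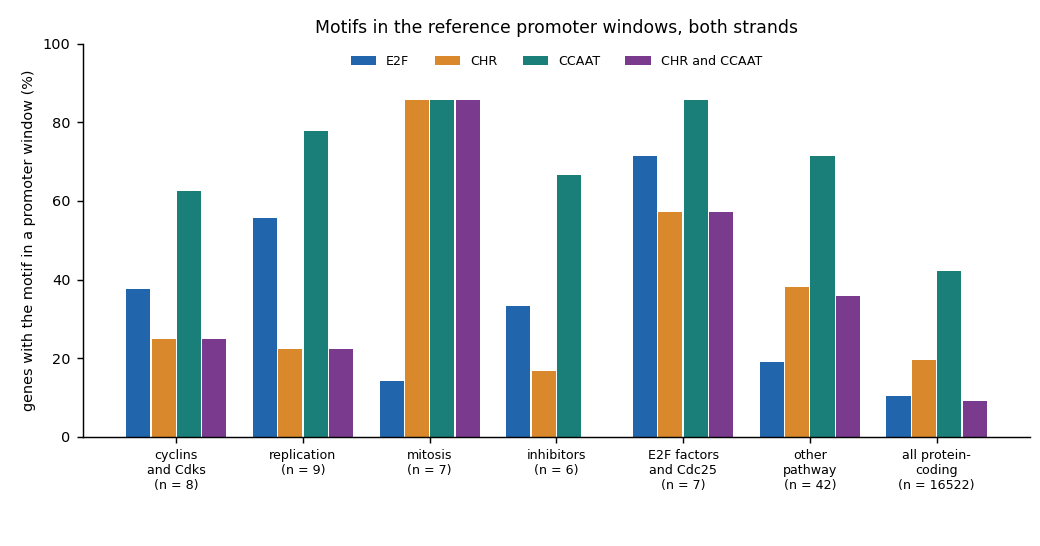
Percent of genes with each kind of letters in a reference promoter window (y axis) for the 5 member groups, the other pathway genes and all protein-coding genes with a window (x axis, n below each). The CHR and CCAAT bar stood at 6 of 7 mitosis genes and at 9.02% of all genes.

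Members with and without the letters overlapped in their ratios between stages. Over the whole span the median log2 ratio, relative to all promoters as defined below, was -0.02 for the 16 members with an E2F match and 0.08 for the 21 without. For the CCAAT box alone it was -0.02 for the 28 with a match and 0.27 for the 9 without, whose ranges were -0.63 to 0.67 and -0.31 to 0.57. It was -0.07 for the 14 members with both CHR and CCAAT and 0.06 for the 23 without. E2f2, with the highest ratio at 0.67, was among the 14 only through a second window outside its promoter peak. The 7 members with no match of any kind (Birc5, Ccne1, Cdk4, Cdk6, Cdkn1a, E2f1 and Tyms) had a median of 0.27 and ranged from -0.31 to 0.57.

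Levels are given as CPM, the counts of a gene for every 1000000 counts in autosomal regions that all 3 lists share. The median log2 ratio over all 14267 promoters was 0.26 over the first interval, -0.27 over the second interval and 0.0044 over the whole span. Every log2 ratio below is given after this median was subtracted, and is called relative. Intervals of CPM and ratios are 95% exact Poisson or binomial intervals on fragment equivalents (2 cuts count as 1 fragment). Those of shares of nuclei are 95% exact binomial intervals on numbers of nuclei. All cover counting error only.

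The libraries held 8294, 20023 and 14048 nuclei, with 87048167, 204289151 and 413425059 counts. Each library had its own peak calls, which numbered 190443, 102459 and 213613, and promoter peaks took 43.7%, 55.6% and 41.4% of the counts. Pairs of libraries shared from 151 to 401 barcodes, and 6 barcodes were in all 3. No doublet caller was run. All 7 MP markers, Hic1 among them, had a promoter peak at every stage, while Ptprc, Spi1 and Gata1, which define blood cells, had none at any. At their promoters, endothelial Cdh5 and Pecam1 reached at most 6.8 CPM and epithelial Krt5 and Krt14 at most 5.6 CPM. Myogenic Myod1 stood at 15.6 CPM at E12.5 and had no promoter peak later, while Myf5, also myogenic, had 1.03 CPM at E12.5, none at E14.5 and 0.88 CPM at E16.5. Further markers of cells other than MPs (Kit, Kdr, Tek, Epcam, Sox10 and Pax7) had a promoter peak in every library, at 4.5 to 50.4 CPM. The part of any such cells in the values below was not tested.

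At the promoters, the cell cycle genes kept close to the rest of the genome. The 43 members had a median relative log2 ratio of -0.03 over the first interval (20 above the median of all promoters and 23 below), 0.01 over the second interval (23 above) and -0.11 over the whole span (19 above). Over the first interval, 2 members differed by more than 1.5-fold from the all-promoter median, against 10.6% of all promoters. In the second interval none of the 43 did, against 10.5%, and over the whole span the same 2 did, against 14.1%. The pair was E2f2, which was higher (against 1.82% and 6.02% of promoters past this fold in that direction), and Cdkn2d, which was lower (against 8.82% and 8.11%). Taken per kb of called width, the members past the fold were Mcm6 and E2f7 (both higher) together with Cdkn2d (lower) over the first interval, against 7.52% of all promoters, none over the second, against 7.88%, and Birc5 (higher) and Ccna2 (lower) over the whole span, against 10.7%. Signs also depended on width, since 13, 17 and 11 of the 43 promoter ratios changed sign per kb in the 3 comparisons. Over the whole span these were the ratios of Bub1, Ccnd3, Cdk6, Cdkn1a, Cdkn2a, E2f1, E2f7, Mcm2, Mcm5, Mcm7 and Plk1. The median member, per kb of called width, stood at percentiles 56.2, 66.4 and 69.7 of all promoters.

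**Figure D2:**
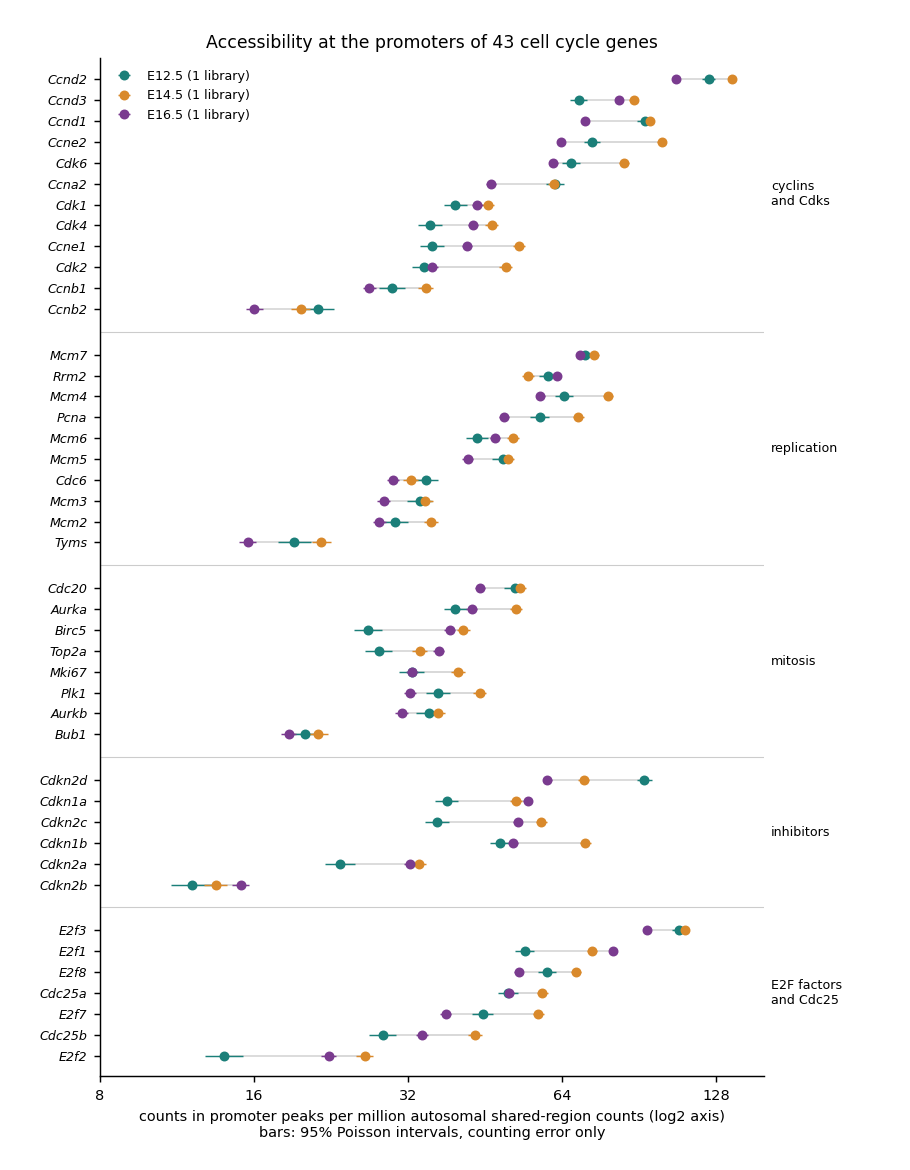
CPM in promoter peaks (x axis, log2 scale) for the 43 members, grouped and ordered by their E16.5 level (y axis), with 1 point per library and 95% Poisson intervals of counting error. The points of most genes lay close together, and those of E2f2 and Cdkn2d lay furthest apart relative to the shift of all promoters.

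**Figure D3:**
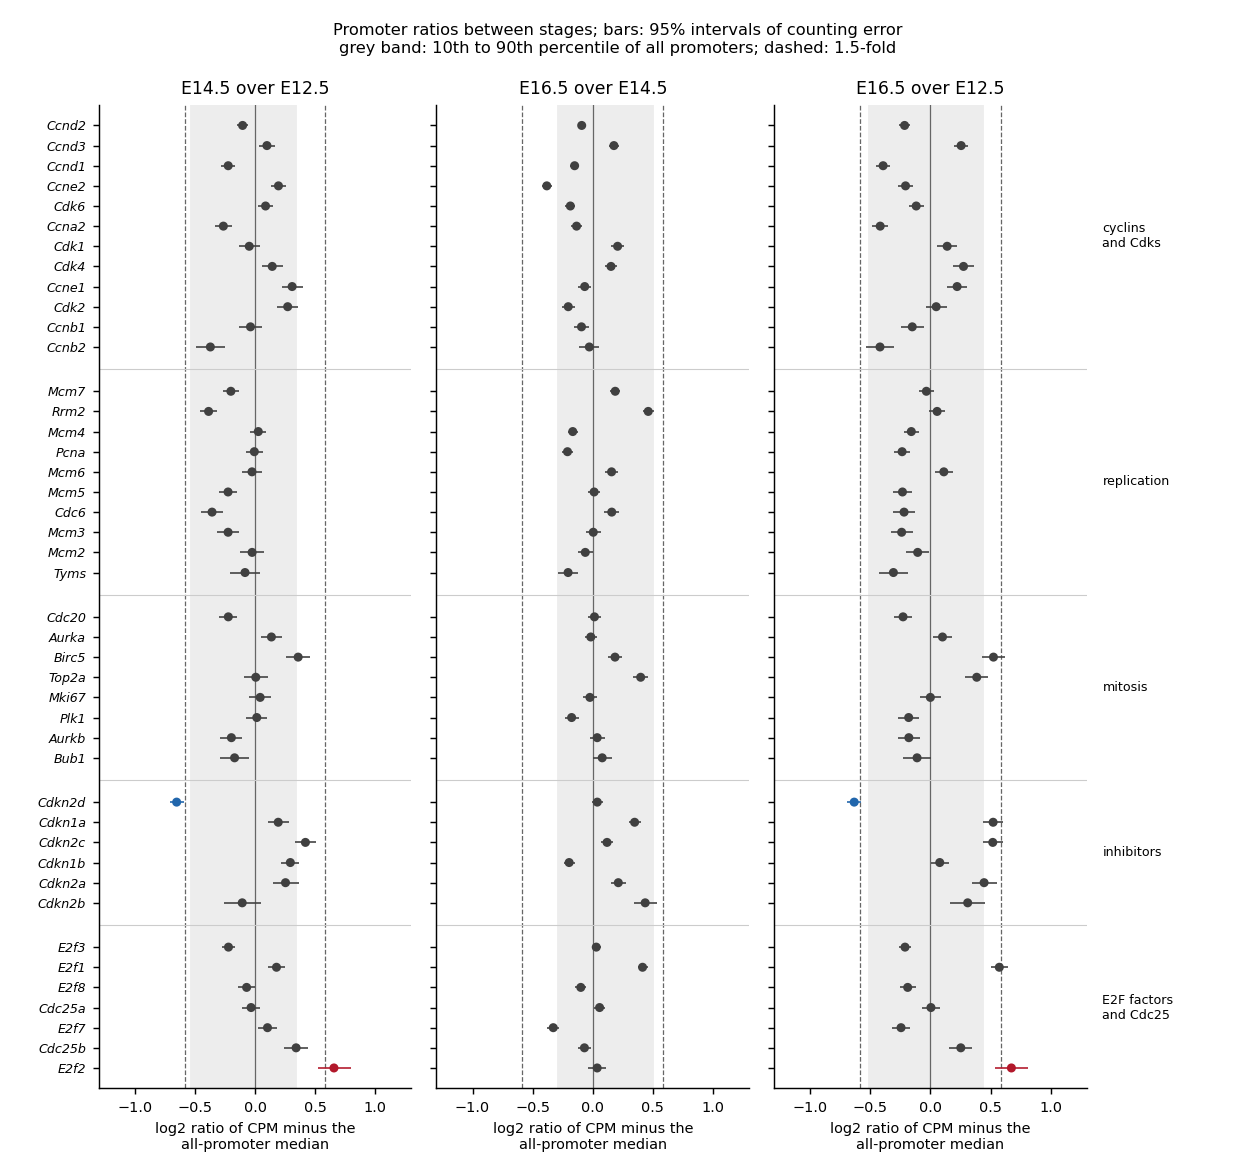
Relative log2 ratios of promoter CPM (x axis) for the same genes (y axis) in the 3 comparisons, with 95% intervals of counting error, the 10th to 90th percentile of all promoters as a grey band, and 1.5-fold as dashed lines. Coloured points mark E2f2 (red, higher) and Cdkn2d (blue, lower), and no point of the second interval passed the lines.

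The D-type cyclins link growth signals to the cycle, and the summed counts of their promoter peaks were among the highest of all members. Per kb of called width they were not, with Ccnd1 at percentiles 47.9, 23.3 and 34.2 of all promoters and Ccnd3 at 45.9, 41.1 and 38.8. Ccnd2 had 123.7, 137.7 and 106.9 CPM, the highest level of any member at every stage. Its called promoter peak was also the widest, at 8737 bp, 8672 bp and 10110 bp. Per kb it ranged from 10.6 to 15.9 CPM, which was at percentile 48.5 or below of all promoters at every stage. Ccnd1 had 92.7, 94.97 and 70.8 CPM, with a relative log2 ratio of -0.39 (-0.45 to -0.34) over the whole span. Ccnd3 had 69.0, 88.3 and 82.6 CPM and a relative log2 ratio of 0.25 (0.19 to 0.32). Its called width went from 5042 bp at E12.5 to 7301 bp at E16.5, and per kb its ratio was -0.10, the same sign as the -0.24 of both Ccnd1 and Ccnd2. Ccnd3 was one of the 2 members with 2 promoter peaks, and its counts lay mostly at the downstream start site, with 59.4, 80.1 and 73.1 CPM, against 9.5, 8.3 and 9.5 CPM at the upstream one.

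E-type cyclins, which with Cdk2 start replication, were highest at E14.5, also after the shift of all promoters was removed. Ccne1 had 35.6, 52.8 and 41.7 CPM, and Ccne2 had 73.2, 100.1 and 63.6 CPM. Over the second interval, the relative log2 ratio of Ccne2 was -0.38 (-0.42 to -0.34), the lowest of any member in that comparison. The lowest ratios of the group over the whole span belonged to cyclins of later phases. Ccnb2, a cyclin of mitosis, had 21.3, 19.7 and 16.01 CPM and a relative log2 ratio of -0.42 (-0.53 to -0.30). Ccna2, which acts in replication and in mitotic entry, had 61.9, 61.6 and 46.5 CPM and likewise -0.42 (-0.49 to -0.35). Ccnb1, the other B-type cyclin, had 29.7, 34.6 and 26.9 CPM and a smaller ratio of -0.15.

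The kinases themselves varied less, with relative log2 ratios of -0.12 to 0.27 over the whole span. Cdk1, the kinase of mitosis, had 39.6, 45.8 and 43.7 CPM, and Cdk2 had 34.4, 49.6 and 35.6 CPM. Cdk4 had 35.3, 46.6 and 42.9 CPM, and its relative log2 ratio of 0.27 (0.19 to 0.36) over the whole span was the highest among cyclins and Cdks. Cdk6 had 66.5, 84.5 and 61.5 CPM and a ratio of -0.12. Across the 12 genes the median was 0.02 over the first interval, -0.09 over the second interval and -0.14 over the whole span, with 5 of 12 above the all-promoter median in the last. The peak of Cdk2 also reached the promoter of Pmel.

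The promoter ratios of the replication genes lay slightly below the all-promoter median where E12.5 was the earlier stage. Their levels did not, with 7, 8 and 9 of 10 above the median level of all promoters per kb. Over the first interval, 9 of 10 had a negative relative log2 ratio, with a median of -0.14, and over the whole span 8 of 10 did, with a median of -0.19. Per kb of called width these medians were 0.03 and 0.06 in place of -0.14 and -0.19, so the direction was not kept when called width was taken into account. The helicase subunits Mcm2 to Mcm7 ranged from 28.1 CPM for Mcm2 at E16.5 to 78.6 CPM for Mcm4 at E14.5. Mcm6 had 43.7, 51.3 and 47.3 CPM and the highest ratio of the group over the whole span, at 0.11 (0.03 to 0.19). Tyms, which makes thymidylate for DNA, had 19.2, 21.6 and 15.5 CPM and the lowest, at -0.31 (-0.43 to -0.19). Rrm2, the small subunit of ribonucleotide reductase, had ratios of opposite sign in successive intervals before called width was taken into account. It had 59.999, 54.9 and 62.5 CPM, with relative ratios of -0.39 (-0.46 to -0.32) and then 0.46 (0.41 to 0.51), so that the one over the whole span was 0.06. Its peak was called at 4596 bp, 2881 bp and 4737 bp, and per kb the ratios of the successive intervals were 0.04 and 0.15.

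Pcna, the sliding clamp of DNA polymerase, had 57.8, 68.8 and 49.3 CPM, and Cdc6, which loads the helicase, had 34.7, 32.4 and 29.9 CPM. Pcna was at percentiles 97.8, 98.5 and 97.8 of all promoters per kb. Mcm4 was at percentiles 96.3, 95.3 and 98.5. The peaks of Mcm4 and Mcm7 also reached the promoters of Prkdc and Ap4m1, which are divergent neighbours.

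As a group the mitosis genes had promoter ratios near the all-promoter median. Birc5 and Top2a were the highest over the whole span before called width was taken into account. Per kb at E12.5 and E16.5, Birc5 had 14.4 and 19.4 CPM, Aurka 15.3 and 19.4 CPM, and Top2a 15.5 and 18.1 CPM, so Aurka then came before Top2a. In level, 6, 6 and 7 of the 8 were above the median of all promoters per kb. Their median relative log2 ratio was 0.01 over the first interval, 0.03 over the second interval and -0.06 over the whole span, with 3 of 8 above the all-promoter median in the last. That last median was 0.13 per kb of called width, with 5 of 8 above. Birc5, which encodes survivin, a subunit of the chromosomal passenger complex, had 26.8, 41.0 and 38.6 CPM and a ratio of 0.52 (0.43 to 0.62) over the whole span. Top2a had 28.1, 33.7 and 36.7 CPM and a ratio of 0.38 (0.29 to 0.48), nearly all of it after E14.5. Cdc20, an activator of the anaphase-promoting complex, had 51.6, 52.9 and 44.2 CPM and the lowest ratio of the group, at -0.23 (-0.30 to -0.15).

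The proliferation marker Mki67 was level at the ends of the series, with 32.5, 40.04 and 32.6 CPM and a relative ratio of -0.00 (-0.09 to 0.09) over the whole span. The mitotic kinases Aurka, Aurkb, Bub1 and Plk1 ranged from 18.7 CPM for Bub1 at E16.5 to 52.0 CPM for Aurka at E14.5. Their ratios over the whole span were 0.10 for Aurka, -0.18 for Aurkb, -0.11 for Bub1 and -0.18 for Plk1, and per kb those of Bub1 and Plk1 were 0.05 and 0.21. The Aurka peak also reached the promoter of Cstf1.

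Before called width was taken into account, the inhibitors spread the furthest of the 5 groups over the whole span. Of the 6, 5 were above the all-promoter median and the sixth, Cdkn2d, was the lowest of all members. Per kb of called width Ccna2 was lower than Cdkn2d, going from 32.4 CPM at E12.5 to 16.5 CPM at E16.5, against 53.2 and 34.9 CPM. Cdkn1a, which encodes p21, had 38.1, 52.0 and 54.8 CPM and a relative log2 ratio of 0.52 (0.44 to 0.60). Cdkn2c, which encodes p18, had 36.5, 58.3 and 52.4 CPM and likewise 0.52 (0.44 to 0.60). Cdkn2a had 23.6, 33.6 and 32.2 CPM and 0.45 (0.34 to 0.55). Cdkn2b, which encodes p15, had the lowest summed counts of the group at 12.1, 13.5 and 15.1 CPM, with 0.31 (0.16 to 0.46). Per kb it had 10.1, 13.6 and 9.8 CPM, against 9.2, 16.5 and 7.5 CPM for Cdkn2a, which was thus lower at E12.5 and E16.5. Cdkn1b, which encodes p27, had 48.5, 71.0 and 51.3 CPM, so that its ratio was 0.29 over the first interval and 0.08 over the whole span. The group median of 0.38 over the whole span was 0.05 per kb of called width, with 3 of 6 above. Per kb the ratio was -0.04 for Cdkn1a and -0.12 for Cdkn2a, so that neither kept its direction, and 0.49 for Cdkn2c. The lower place of Ccna2 per kb is one of ratio and not of level.

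Cdkn2d, which encodes the p19 of the Ink4 family, went the other way. It had 92.7, 70.5 and 59.9 CPM, and was the most open inhibitor at E12.5 and at E16.5. Its relative log2 ratio was -0.65 (-0.71 to -0.59) over the first interval, 0.04 over the second interval and -0.63 (-0.69 to -0.58) over the whole span. The peak was called at 1742 bp, 1562 bp and 1715 bp, and per kb it was at or above percentile 99.6 of all promoters at every stage. Counted as nuclei with a count, the ratios were -0.46 and -0.53, which are inside 1.5-fold. Per kb of called width the second ratio was -0.43, also inside 1.5-fold, while the first was -0.74.

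Start sites within an inhibitor locus differed. Cdkn2a carries an upstream start that gives the Arf transcript and a downstream start that gives the Ink4a transcript (p16). The Arf start had 19.6, 30.7 and 27.6 CPM, whereas the Ink4a start had 4.0, 2.9 and 4.6 CPM, lower at every stage. Nuclei with a count at the Arf peak made up 6.80% (6.27 to 7.36), 13.3% (12.8 to 13.8) and 25.1% (24.4 to 25.9) of the libraries, and at the Ink4a peak 1.77% (1.499 to 2.08), 1.603% (1.43 to 1.79) and 5.30% (4.94 to 5.69), with no correction for depth. At Cdkn1a the first annotated start was in no peak at any stage, while the starts at chr17:29093769 and chr17:29093781 were in a peak at all 3. A further start at chr17:29097900 was inside the peak at E16.5 only, where the peak was called at 4839 bp, against 2883 bp at E12.5 and 2821 bp at E14.5.

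Among the E2F factors, the promoter ratios of the activators diverged before called width was taken into account. E2f2 had 13.98, 26.3 and 22.4 CPM, the second-lowest level of any member at E12.5. Its relative log2 ratio was 0.66 (0.52 to 0.79) over the first interval, at percentile 98.8 of all promoters, then 0.04, and 0.67 (0.54 to 0.81) over the whole span, at percentile 95.3. Its peak was called at 1810 bp, 1740 bp and 3008 bp, and per kb of called width the ratios were 0.46 and 0.12, so that neither passed 1.5-fold. E2f1 had 54.0, 73.1 and 80.6 CPM and a ratio of 0.57 (0.50 to 0.64) over the whole span, just inside 1.5-fold, with most of it after E14.5 and with a peak that was called at 2767 bp, 2307 bp and 5254 bp. That ratio was -0.17 per kb of called width, so the direction was not kept. E2f3 had the second-highest summed counts of any member at every stage, at 108.2, 111.0 and 93.8 CPM, with a ratio of -0.21 (-0.26 to -0.16). Per kb of called width it had 25.1, 26.3 and 21.1 CPM, below Cdkn2d, Pcna, Mcm4 and Ccne2 at every stage.

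The atypical factors E2f7 and E2f8, which repress E2F targets, had 44.7, 57.5 and 37.9 CPM and 59.8, 68.1 and 52.6 CPM. E2f7 had the lowest ratio of the group over the whole span, at -0.24 (-0.32 to -0.17), but 0.33 per kb. The phosphatase genes Cdc25a and Cdc25b, whose products activate Cdks, had 50.1, 58.5 and 50.4 CPM and 28.5, 43.2 and 34.1 CPM. Their ratios were 0.00 and 0.25, and the peak of Cdc25b also reached the promoter of Spef1.

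Of 56 other genes of the pathway, among them retinoblastoma proteins, licensing factors, kinetochore genes and checkpoint kinases, none was past 1.5-fold at the promoter over the first interval, 1 was over the second interval and 2 were over the whole span, against the 10.6%, 10.5% and 14.1% of all promoters given above. Their medians were -0.00, -0.00 and 0.01. Tk1, the thymidine kinase that salvages thymidine for replication, was the one past the fold upwards, with 31.3, 38.0 and 52.3 CPM and a ratio of 0.73 in each of the last 2 comparisons. Its peak was called at 2684 bp, 2653 bp and 8300 bp, and also reached the promoter of Afmid. Per kb it had 11.7, 14.3 and 6.3 CPM, with a ratio of -0.71 over the whole span, so the direction turned. Cenpf, a kinetochore protein, was the one past it downwards, with 53.3, 45.5 and 32.6 CPM and -0.71 over the whole span. Its peak was called at 2310 bp, 1331 bp and 1463 bp, and per kb the ratio was 0.13, inside 1.5-fold and of the other sign. Per kb, 3, 2 and 5 of the 56 were past the fold in the 3 comparisons, against 7.52%, 7.88% and 10.7% of all promoters, and Cenpf was not among them. In the first comparison the highest ratio was that of Tfdp1, the dimer partner of E2F factors (0.55), and the lowest that of Gins2, a subunit of the replicative helicase (-0.50).

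Over all promoters called width and ratio went together in every comparison, while among the members they hardly did in the first. Over the 43 members the rank correlation of the promoter ratio with the ratio of called widths was 0.01 over the first interval, 0.44 over the second and 0.35 over the whole span, and over all 14267 promoters it was 0.47, 0.54 and 0.53. These points share libraries and depth. Promoter peaks of members had a median width of 2354, 1827 and 2327 bp.

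The whole loci, gene body plus 2000 bp upstream, added OCRs outside promoters. Members had 129, 93 and 161 peaks, of which 45 were promoter peaks at each stage. Summed over the locus, the median relative log2 ratio of the members was 0.10, -0.13 and -0.14 in the 3 comparisons. This was after all-locus medians of 0.09, -0.05 and 0.06 were subtracted, where those of all promoters were 0.26, -0.27 and 0.0044. With no subtraction the member medians were 0.19, -0.19 and -0.09 over loci, against 0.23, -0.26 and -0.10 at promoters. Relative to the all-locus median, 1, 1 and 2 members were past 1.5-fold, against 18.3%, 17.7% and 18.1% of 15930 loci. The directions were higher for the first (against 3.04% of loci), lower for the second (against 2.11%) and higher for both of the last (against 9.08%). E2f2 stood apart, with 24.8, 39.0 and 56.2 CPM and a ratio of 1.12 (1.03 to 1.22) over the whole span. Its called width went from 3940 bp to 3115 bp and 9207 bp, and per kb it had 6.3, 12.5 and 6.1 CPM, with a ratio of 0.20, inside 1.5-fold. Cdkn2a had 30.7, 36.4 and 48.1 CPM and a ratio of 0.59 (0.50 to 0.68). The remaining 2 each had 1 peak at the stages compared, so that their locus was their promoter. From the same counts, Cdkn2c stood at 0.59 over its locus and at 0.42 at its promoter in the first interval, and Ccne2 at -0.60 and -0.38 in the second. These 2 passed 1.5-fold only because a different median was subtracted.

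Loci of markers of other cells also had peaks and differed between stages. Among endothelial genes, Pecam1 had 46.8, 30.5 and 76.2 CPM over its locus, Tek had 30.6, 45.0 and 68.6 CPM, Cdh5 had 6.0, 1.1 and 17.7 CPM, and Kdr had 52.2, 50.4 and 44.9 CPM. Their relative ratios over the whole span were 0.65, 1.11, 1.498 and -0.28, so that 3 of the 4 were higher at E16.5, as the E2f2 locus was. Per kb of called width they were 0.23, 0.52, 0.31 and -0.04, all inside 1.5-fold. Of the blood genes, Ptprc had 28.5, 16.3 and 11.1 CPM and Spi1 31.9, 23.5 and 28.0 CPM, all outside their own promoters, and Gata1 had no peak. Whether such cells had a part in the locus values was not tested.

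Loci with many OCRs differed from their promoters. Ccnd3 had 160.3, 180.1 and 222.3 CPM over its locus and a relative ratio of 0.42 (0.38 to 0.46) over the whole span, against 0.25 at its promoter, and 0.06 per kb. Cdk6 had 142.4, 105.7 and 128.2 CPM, with -0.52 (-0.56 to -0.47) over the first interval and 0.33 (0.30 to 0.36) over the second, as the number of its peaks went from 31 to 11 and to 33. Its called width was 22503 bp, 7801 bp and 24644 bp, and per kb these ratios were 0.47 and -0.51, so both directions turned. Over the members, 17, 29 and 12 of the 43 locus ratios changed sign per kb in the 3 comparisons. Cdkn2d had 132.3, 119.6 and 101.4 CPM and -0.44 over the whole span, and E2f7 had 53.0, 63.3 and 49.9 CPM and -0.14. At other members the locus added little to the promoter. Cdk4 had 35.5, 46.6 and 43.6 CPM, Mcm6 had 43.7, 52.7 and 47.4 CPM, Ccnb2 had 21.5, 19.7 and 18.6 CPM, and Cdc20 had 51.6, 52.9 and 47.5 CPM. Tyms, Birc5 and Cdkn1a had their promoter peak as their only peak at every stage.

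Merging overlapping peaks across the lists gave 181 regions over the member loci, of which 84 were called at all 3 stages, 27 at 2 and 70 at 1. Over the whole genome, 89647 of 190443, 91526 of 102459 and 86678 of 213613 peaks lay in regions that all 3 lists share. All 45 regions at a member promoter were called at every stage. Of 20807 annotated autosomal protein-coding genes, 14267 had a promoter peak in every library. Of the 70 regions called at a single stage, 50 were called at E16.5, 20 at E12.5 and none at E14.5, the order of the numbers of peaks in the lists. Cdk6 had 31, 11 and 33 peaks, Ccnd3 had 12, 13 and 17, E2f3 had 10, 4 and 12, and E2f2 had 4, 2 and 8. At Mki67 the promoter was the only peak at E12.5 and E14.5, and 4 further regions of 1.0 to 2.1 CPM within the gene were called at E16.5.

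Regions outside promoters were past 1.5-fold more often than those at promoters. Of the 84 shared regions, 47 reached the promoter of a protein-coding gene and 37 did not. Relative to the median of all shared regions of their class, 2 of the 47 and 22 of the 37 were past 1.5-fold over the whole span, against 15.8% and 59.1% of all such regions. Over the first interval the counts were 3 (1 higher, against 2.2%, and 2 lower, against 10.2%) and 21, against 12.4% and 53.2%, and over the second interval 1 and 18 (11 higher and 7 lower, against 26.3% and 24.3%), against 11% and 50.6%. The members' regions outside promoters were thus near the background of their class. Taken per kb, the numbers outside promoters were 12 of 37 over the whole span, against 40.7%, 14 over the first interval, against 32.3%, and 7 over the second, against 26.3%.

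**Figure D4:**
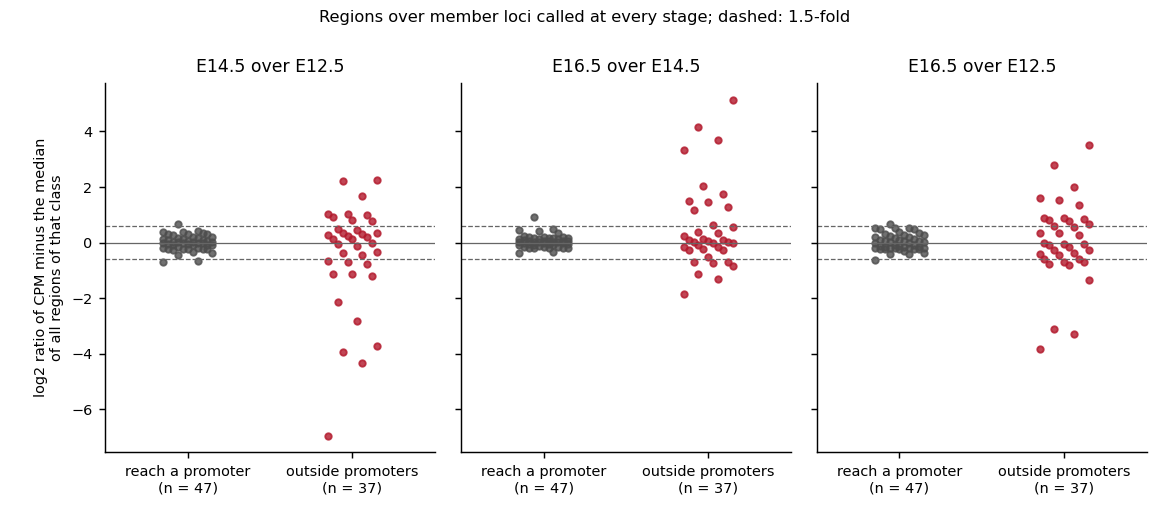
Log2 ratios of CPM minus the median of all shared regions of the class (y axis) for the 47 member regions that reach a promoter and the 37 that do not, in the 3 comparisons, with 1.5-fold as dashed lines. Over the whole span, 22 of 37 regions outside promoters and 2 of 47 at promoters lie past the lines.

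An intron of E2f3 held the region with the largest difference over the whole span, at chr13:29938704-29940182 (mm10, as are all positions of peaks), 46.6 kb into the gene. It had 14.5, 0.71 and 1.02 CPM, and was called at 1479 bp, 175 bp and 504 bp. Per kb of called width it had 9.8, 4.1 and 2.0 CPM, so the order of the stages was then E12.5, E14.5 and E16.5. A neighbouring intron region, 41.9 kb into the gene, had 6.2, 8.9 and 9.4 CPM, lowest at E12.5.

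Ccnd2 had a region that went the other way, at chr6:127132280-127133440 in an intron, 19.3 kb into the gene. It had 1.08, 3.82 and 12.1 CPM, and per kb it had 2.5, 6.2 and 10.4 CPM. Its relative log2 ratio of 3.50 over the whole span contrasted with -0.20 for the region of the Ccnd2 promoter, and a second intron region, 9.6 kb into the gene, had 9.0, 6.2 and 8.0 CPM. The Cdc25b intron region at chr2:131190221-131191092, 3.7 kb into the gene, had 9.6, 3.1 and 1.1 CPM, and 11.02, 6.43 and 2.62 CPM per kb, while the promoter of the gene had 28.5, 43.2 and 34.1 CPM. The central 200 bp of these 3 regions, taken at the middle of the widest called peak, are shown because their ratios over the whole span were the highest (Ccnd2) and, with that of a Cdk6 region described below, the lowest of the 37, while the promoter of each gene was inside 1.5-fold. Each is written on the strand of its gene, and none held a match to the letters searched above.

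E2f3 intron region, chr13:29939343-29939542, minus strand: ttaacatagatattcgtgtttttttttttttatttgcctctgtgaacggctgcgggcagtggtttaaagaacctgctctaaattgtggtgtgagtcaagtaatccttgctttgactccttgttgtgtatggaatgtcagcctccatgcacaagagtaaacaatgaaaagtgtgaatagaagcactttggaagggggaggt
Ccnd2 intron region, chr6:127132760-127132959, minus strand: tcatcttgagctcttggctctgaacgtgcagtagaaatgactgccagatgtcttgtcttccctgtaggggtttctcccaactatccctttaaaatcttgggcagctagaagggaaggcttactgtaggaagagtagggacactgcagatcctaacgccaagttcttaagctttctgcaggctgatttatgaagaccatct
Cdc25b intron region, chr2:131190557-131190756, plus strand: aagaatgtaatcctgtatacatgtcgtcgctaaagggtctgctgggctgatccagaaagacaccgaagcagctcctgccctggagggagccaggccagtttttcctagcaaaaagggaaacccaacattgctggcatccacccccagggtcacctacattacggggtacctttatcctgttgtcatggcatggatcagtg

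Ccnd3 carried 8 shared regions within its introns. The one with the most counts at E16.5, 22.9 kb into the gene, had 13.9, 18.3 and 35.2 CPM, and a smaller one, 8.5 kb in, had 0.97, 1.51 and 6.63 CPM. Others hardly differed, such as that 6.6 kb in, with 27.2, 20.3 and 26.9 CPM. An intron region of Cdk6, 58.2 kb into the gene, had 17.4, 0.11 and 1.77 CPM, but was called at only 58 bp at E14.5, against 2010 bp at E12.5, and per kb it had 8.7, 1.9 and 2.6 CPM.

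At E2f2 the higher locus counts at E16.5 came from several regions. A region over an exon, 8.3 kb into the gene, had 9.9, 12.7 and 17.1 CPM, and RefSeq places a second E2f2 start site inside it, at a window (chr4:136180532-136180831) that held 3 CCAAT boxes and 1 CHR match. An intron region 13.2 kb in had 0.57 CPM at E12.5, no peak at E14.5 and 7.25 CPM at E16.5, and 4 further regions were called at E16.5 only. At Cdkn2a a region over an exon, 19.9 kb from the Arf start, had 8.2, 2.9 and 15.1 CPM, called at 3196 bp, 762 bp and 5204 bp, and 2.6, 3.8 and 2.9 CPM per kb. Per kb of called width the locus ratio of Cdkn2a over the whole span was -0.03 in place of 0.59. At Cdkn2d, a second region that reaches the promoter of the neighbouring gene Kri1 had 39.6, 49.1 and 41.5 CPM, so the difference at this locus lay at the Cdkn2d promoter.

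**Figure D5:**
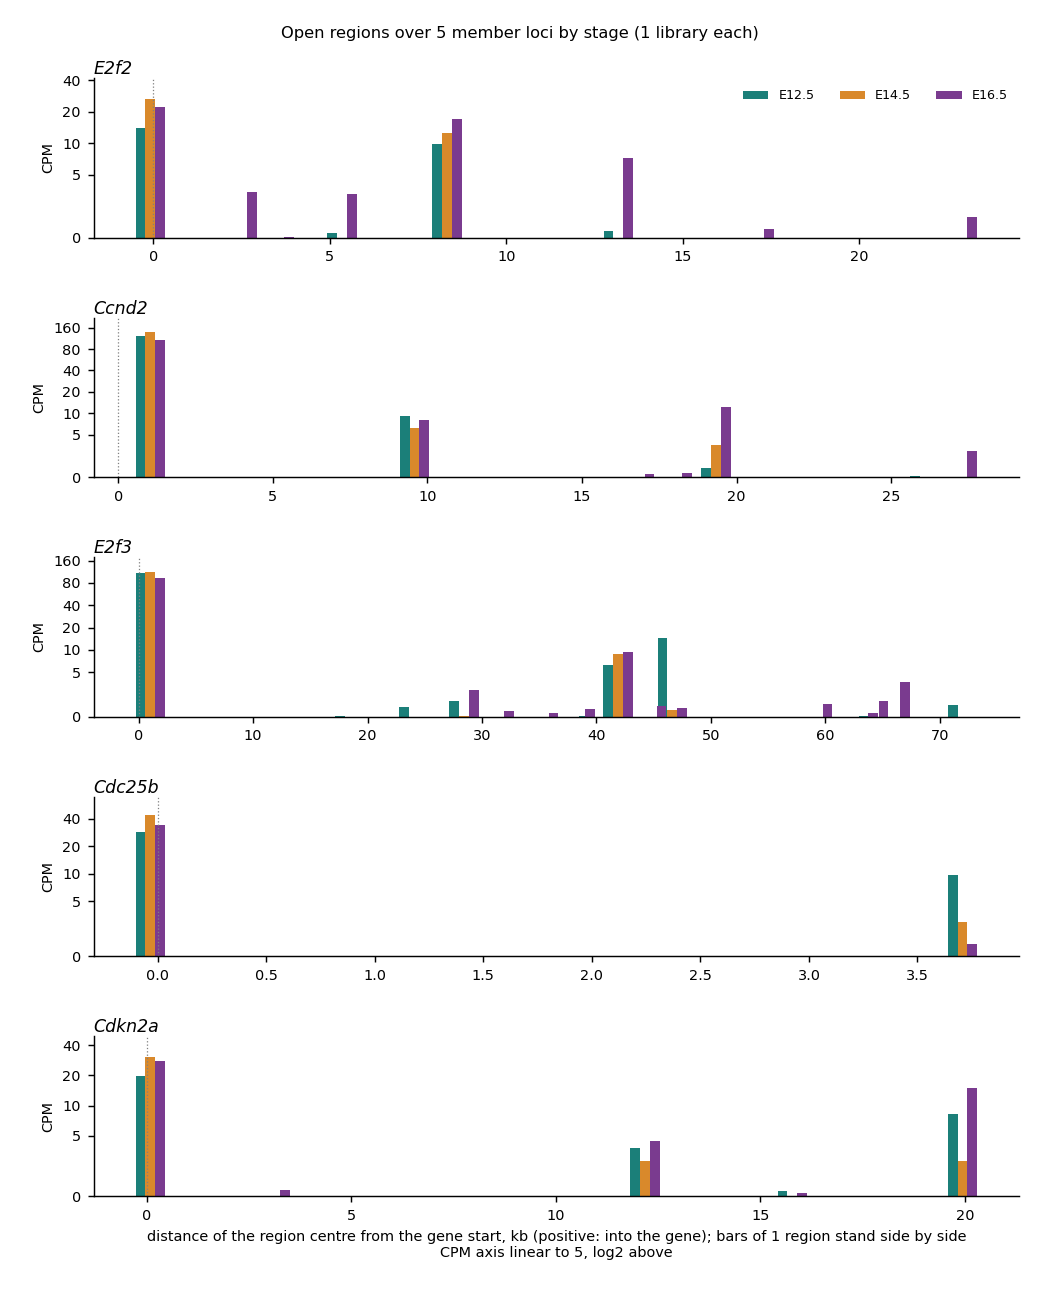
CPM in each merged region (y axis, linear to 5 CPM and log2 above) against the distance of its centre from the gene start in kb (x axis) for E2f2, Ccnd2, E2f3, Cdc25b and Cdkn2a, with 1 bar per library. The bars at the start sites are present at all 3 stages, and many of those within the genes at 1 stage only.

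After thinning, few nuclei had a fragment at a given member promoter. With each nucleus thinned to 1309 fragment equivalents, and shallower nuclei left out (2073, 502 and 214), the median share over the 43 promoters was 3.92%, 5.94% and 4.33%. Without thinning the medians were 13.1%, 20.9% and 35.6% and the highest shares 28.2%, 42.1% and 59.9%, in the order of depth, with a median of 3070, 4496 and 13749 fragment equivalents per nucleus. For scale, the Hic1 promoter had thinned shares of 12.8%, 10.5% and 11.3%. Among members the highest were those of Ccnd2, at 11.2% (10.4 to 11.96), 14.6% (14.1 to 15.1) and 10.1% (9.6 to 10.6). Cdkn2b was among the lowest, at 1.14% (0.89 to 1.44), 1.66% (1.48 to 1.84) and 1.54% (1.33 to 1.75).

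In these shares, E2f2 was higher and Cdkn2d lower at the later stages than at E12.5. The shares come from the same counts and peaks as the ratios, and no shift of all promoters was removed. The median share over the members, at 3.92%, 5.94% and 4.33%, had the same order of stages as that of E2f2. E2f2 had a fragment in 1.14% (0.89 to 1.44), 2.89% (2.66 to 3.13) and 2.25% (2.01 to 2.52) of nuclei, and Cdkn2d in 9.31% (8.60 to 10.1), 8.23% (7.85 to 8.63) and 6.32% (5.92 to 6.74). Mki67 had 2.99% (2.58 to 3.44), 4.45% (4.16 to 4.75) and 3.24% (2.95 to 3.55). Fewer nuclei with an open promoter and less accessibility in each nucleus cannot be told apart in these shares.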

How the data were processed

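Nuclei of sorted tdTomato+ cells were profiled by 10x Chromium single-cell ATAC-seq, with 1 library per stage. The authors aligned reads to mm10, called nuclei and called peaks with Cell Ranger ATAC, and deposited, for each library, raw counts of transposase cut sites per peak and nucleus with the peak positions, which carry no scores. The submitters' processing notes name version 1.1.0, whereas the file headers give 1.0.1, 1.0.1 and 1.2.0. Peaks were called in each library alone, so the interval counted for a gene differs between libraries.

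From these counts, peaks overlapping 1000 bp upstream to 100 bp downstream of a GENCODE M21 start site (promoter), or the gene body and 2000 bp upstream (locus), by at least 1 bp were summed per gene over all nuclei and scaled to 1000000 counts in autosomal regions shared by the 3 lists (CPM). Peaks of the 3 lists that overlapped were merged into regions. The log2 ratio between stages had the median of all autosomal protein-coding genes (for regions, of all shared regions of the class) subtracted, and a gene was counted past 1.5-fold on that scale. Since each stage was 1 library, no test was run. Intervals are exact at 95%, on fragment equivalents for CPM and ratios and on numbers of nuclei for shares, and cover counting error only. Shares of nuclei were taken after thinning to 1309 fragment equivalents. Promoter sequences and start windows came from RefSeq (GRCm38.p6), and motif letters were searched on both strands. Some marker genes of cells other than MPs are not reported here. No doublet caller was run, and 0 columns were left unused.

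Members and lists were chosen with earlier results of these data known. Full values were to be given for members past 1.5-fold in any comparison, for the highest and lowest promoter ratio of each group over the whole span, and for members with several promoter peaks or lacking one in some library. The 3 intron regions and 5 promoter windows printed were chosen after their values were seen. In all, 13 alternative settings were planned and 2 were added. The ratio and motif steps were tested on simulated data. Python 3.11.15, numpy 2.4.6, scipy 1.17.1, pandas 2.3.3 and matplotlib 3.10.9 were used.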

Additional observations from a re-analysis of the deposited data

How the results depend on the processing

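Of 141 recomputed medians and counts over the members, 85 stayed near the values above and 56 moved. Of 80 recomputed ratios of the members past 1.5-fold (E2f2, Cdkn2d, Cdkn2a, Cdkn2c and Ccne2), 58 stayed past it, 21 moved inside it and 1 changed sign. Other genes changed sign per kb, as given above. Scaling to counts in promoter peaks is not counted, since a factor common to all genes of a library cancels when the all-gene median is subtracted. In what follows values in threes belong in order to the first interval, the second interval and the whole span, where only those that moved are given. Per kb of called width, the promoter median over the whole span was 0.0228, the locus medians were -0.0323, 0.13 and 0.0464, the numbers of loci past 1.5-fold were 2, 0 and 5, against 9.08%, 10.6% and 10.2% of all, and Cdkn2a changed sign over its locus at -0.0265. With a fold of 1.3, 4, 5 and 11 of the 43 promoters were past it, against 22.3%, 19.2% and 27.9% of all, and 7, 10 and 10 loci, against 34.9%, 32.8% and 33.4%. With a fold of 2, 0 promoters were past it over the first interval and the whole span, and 0, 0 and 1 loci, against 4.44% to 7.46% of all promoters or loci. Counting nuclei with a count left 1 promoter past 1.5-fold over the first interval and 1 over the whole span (against 9.22% and 10.8% of all), 2 loci over the second interval and 1 over the whole span (against 17.04% and 16.1%), with a locus median of -0.20 over the second interval. With no centring, the promoter medians were 0.23 and -0.26 over the 2 intervals, with 4 and 2 promoters past 1.5-fold (against 16.03% and 13.9%), while 3 loci were past it over the first interval (against 18.5%) and the locus median was -0.19 over the second. Without the deepest 5% of nuclei, the promoter median over the whole span was -0.00665 with 4 promoters past 1.5-fold (against 16.2%), and 4 and 2 loci were past it over the 2 intervals (against 20.2% and 17.6%). Sums over merged regions gave 0, 2 and 1 loci, as did peaks open in at least 1% of nuclei, the stricter threshold used because the lists hold no scores. A reciprocal overlap of 50% gave 0, 0 and 1 loci, with locus medians of -0.0120 and -0.0644 over the second interval and the whole span. Genes with at least 5 CPM gave 0 and 2 loci over the 2 intervals, and leaving out genes whose promoter peak reached another promoter gave 2 loci over the first. Reading only peaks of shared regions gave 0 loci over each interval and a locus median of -0.0855 over the second. Under the settings from merged regions to shared regions, 8.52% to 20.3% of all loci were past 1.5-fold. Per kb, 0 of 47 member regions at promoters (against 7.7%) and 7 of 37 outside (against 26.3%) were past 1.5-fold over the second interval, and 12 outside (against 40.7%) over the whole span. These last 2 settings were chosen after seeing the data. Without thinning, the median shares of nuclei were 13.1%, 20.9% and 35.6%. The cause of these shifts was not tested. No paired analysis was possible because there was 1 library per stage, and for the same reason no library could be left out.

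Depth limits the small regions most: the Ccnd2 intron region rested on 42 fragment equivalents at E12.5, the shallowest library, against 2047 at E16.5. Differences between stages include any difference between libraries, and their size beyond counting error is unknown.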
